A study of Mus musculus with 6 samples.

Results

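Kidney endothelial cells (ECs) that had lost the Notch transcription factor Rbpj held more reads over 4 genes, Lag3, Cd68, Stpg3 and Mc1r, each of which lies a short way behind another, more strongly read gene on the same strand. The upstream genes are Ptms, Eif4a1, Tubb4b and Tcf25, in that order. These 8 genes of the 55401 listed make up 4 pairs (downstream and upstream gene). They were picked by name with the genotype comparison already known, because the downstream gene was higher in the knockout ECs, so their fold changes and ratios between genotypes are given as a description, without a test.

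The cells were CD31+CD45- ECs, enriched with magnetic beads and sorted by flow cytometry from the kidneys of male mice. Mice labelled Cdh5CreERT2/-;Rbpj f/f (genotype Cre +/-; Rbpjf/f) are called RbpjΔEC, and littermates without the transgene (Cre -/-; Rbpjf/f) are called CTRL. Both groups carried floxed Rbpj on both alleles and both received 5 injections of 1.5 mg tamoxifen at 8 weeks of age, so that only the Cre transgene differed. Cells were taken 12 weeks later (age label 21 weeks), with 3 libraries per group, each from another mouse. Cdh5 drives the inducible Cre in vascular endothelium, which limits the model to ECs and to any other cell that has used this promoter.

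RNA polymerase II does not stop at the end of a gene. The transcript is cut behind a polyadenylation signal, usually AATAAA or ATTAAA, while the polymerase runs on until termination factors release it, and RNA made beyond the cut is normally degraded. Where the next gene on the same strand starts soon after, such RNA covers the exons of that gene, and total-RNA libraries, which do not select for poly(A) tails, can hold it beside the gene's own messenger RNA. A count of reads over exons does not tell these sources apart.

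All coordinates are from the mouse build GRCm38 with GENCODE M21 gene models, and the gap is the distance from the end of the upstream gene to the start of the downstream gene. Lag3 (chr6:124904361-124911705, minus strand) started 1975 bases behind Ptms (chr6:124913681-124920103). Cd68 (chr11:69664213-69666153, minus strand) started 782 bases behind Eif4a1 (chr11:69666936-69672423). Stpg3 (chr2:25212207-25214637, minus strand) lay farthest from its neighbour, 7522 bases behind Tubb4b (chr2:25222160-25224702), with Fam166a on the other strand in between. Mc1r (chr8:123407107-123410744, plus strand) started 3271 bases behind Tcf25 (chr8:123373753-123403835). No base was exonic in both genes of any pair. The gap depends on the annotation: in the RefSeq models of the same build it was 1240 bases for Lag3, 765 for Cd68, 3450 for Stpg3 and 2907 for Mc1r.

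The annotated ends of the upstream genes are where their transcripts would be cut. The 30 bases around the last polyadenylation signal within 50 bases of the end of the farthest-reaching coding transcript are shown for the upstream genes, and for the downstream genes for comparison, with the signal in capitals.
Ptms (upstream, chr6:124913690-124913719, minus strand): tataatttAATAAAgaaacggtcgcgcttc
Eif4a1 (upstream, chr11:69666938-69666967, minus strand): aaattctgAATAAAattacttggaaactgc
Tubb4b (upstream, chr2:25222161-25222190, minus strand): ataccaccATTAAAgcaattcatagtgtgt
Lag3 (downstream, chr6:124904362-124904391, minus strand): cccgcccgAATAAActccctgtcagcagca
Cd68 (downstream, chr11:69664215-69664244, minus strand): ggggaatcAATAAAcatgaatggtacctac
Mc1r (downstream, chr8:123410714-123410743, plus strand): agatgaatATTAAAtcagtgttgtctgtga
Ptms and Eif4a1 ended with AATAAA, 25 and 18 bases before the end, and Tubb4b with ATTAAA, 17 bases before the end. Neither set of letters was in the last 50 bases of the Tcf25 transcript or of the Stpg3 transcript. The RefSeq model of Tcf25 runs on to base 123404174, past the GENCODE end at 123403835, and that farther end was not searched. Over 58787 coding transcripts, 50.22% held one of them in that window.

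RefSeq promoter sequences (GRCm38.p6, 250 bases before to 50 after the start) matched 6 of the 8 genes, Cd68 and Mc1r among the downstream ones, and are shown for these, with TGGGAA, the core of the site that Rbpj binds, or its reverse complement TTCCCA in capitals.
Cd68 (chr11:69666121-69666420, minus strand): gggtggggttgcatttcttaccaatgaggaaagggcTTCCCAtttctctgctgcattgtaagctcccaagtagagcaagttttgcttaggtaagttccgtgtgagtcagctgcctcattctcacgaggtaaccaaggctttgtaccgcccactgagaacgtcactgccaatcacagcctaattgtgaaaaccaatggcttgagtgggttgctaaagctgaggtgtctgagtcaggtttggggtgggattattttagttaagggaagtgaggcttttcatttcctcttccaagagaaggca
Mc1r (chr8:123406832-123407131, plus strand): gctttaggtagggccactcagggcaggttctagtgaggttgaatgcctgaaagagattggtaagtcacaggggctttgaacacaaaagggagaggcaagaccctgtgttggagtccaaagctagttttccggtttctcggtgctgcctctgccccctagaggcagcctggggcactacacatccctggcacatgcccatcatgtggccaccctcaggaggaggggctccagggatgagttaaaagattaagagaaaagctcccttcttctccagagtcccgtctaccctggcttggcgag
Cd68 held 1 match on either strand, its first base 214 bases before the start. Mc1r held none. Ptms and Tubb4b held 1 each, 61 and 101 bases before the start, and Eif4a1 and Tcf25 held none. Among 32851 promoters of the same length, 25.56% held the motif. The longer GTGGGAA, which contains TGGGAA, was in none of the 6 and in 6.383% of promoters. A match is a run of letters and not a bound site.

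Library totals ran from 39649171 to 47726850 counts. CTRL 1 stood apart, with counts on 33764 genes against 25629 to 26785 in the others, and values without it are given for the 8 genes, the pair ratios and the genes behind stronger neighbours. Rbpj itself was at 26.1 to 29.8 CPM (counts scaled to a fixed library size, with TMM factors) in all libraries, with a log2 fold change of -0.05 (edgeR adjusted p = 0.793), its counts pooling floxed and other exons. Hey1, a direct Notch target, was lower in all RbpjΔEC libraries but did not pass the test (log2 fold change -0.76, edgeR adjusted p = 0.0722). All 12 endothelial markers of the list were tested and none passed, with the smallest p for Eng (log2 fold change -0.41, edgeR adjusted p = 0.0660) and Kdr (-0.27, edgeR adjusted p = 0.106). Of the 12, 9 had a log2 fold change below 0 and 3 above. Their summed level did not overlap, at 25518 to 28478 CPM in CTRL and 23448 to 24293 CPM in RbpjΔEC. In bulk samples, fewer cells of a type and less RNA per cell cannot be told apart.

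Of 18438 genes tested with edgeR, 106 were called higher in RbpjΔEC (0.575%) and 103 lower, 1.13% in all. With library sizes alone as scaling the split was 159 higher (0.862%) and 82 lower (0.445%). The 4 downstream genes are among those 106, which is how they came to be chosen, and of the upstream genes 1, Eif4a1, is too. CPM in all RbpjΔEC libraries above all CTRL libraries was found for 11.4% of tested genes. All 8 members passed the low-count filter, Mc1r only through the RbpjΔEC libraries.

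Lag3 (ENSMUSG00000030124.2) encodes an inhibitory receptor of activated T cells that binds MHC class II. Its level was 1.45, 2.13 and 1.89 CPM in CTRL 1, 2 and 3, and 5.73, 7.51 and 8.71 CPM in RbpjΔEC 1, 2 and 3. The groups did not overlap, and the means were 1.82 ± 0.349 and 7.32 ± 1.50 CPM (SD, n = 3), a log2 fold change of 2.00 ± 0.229 (SE). The raw counts behind these values were 58, 101 and 80 against 257, 315 and 349.

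Ptms (ENSMUSG00000030122.12), the neighbour of Lag3, encodes parathymosin, a small acidic nuclear protein. It stood at 241, 181 and 208 CPM in CTRL and at 210, 225 and 178 CPM in RbpjΔEC. The groups overlapped, with the highest library in CTRL and the lowest in RbpjΔEC, and the log2 fold change was -0.04 ± 0.114. Lag3 was therefore higher behind a neighbour whose own level did not separate the genotypes.

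T and NK cells, the usual source of Lag3, left few reads. Of 16 markers (Lag3 left out), 4 passed the low-count filter and none passed the test. Cd3d, Cd3e and Ctla4 were at 0 in all libraries, and the summed level was 7.66 to 8.64 CPM in CTRL and 7.72 to 11.3 CPM in RbpjΔEC. Most of that sum was Lck, a T cell kinase, and Cd247, the T cell receptor zeta chain. Lck had a log2 fold change of 0.73 (edgeR adjusted p = 0.177) and Cd247 of -0.41 (edgeR adjusted p = 0.473), with overlapping groups in both. Lck itself starts 3173 bases behind a gene 60.8 times stronger on the same strand, Fam167b. Cd4, the next gene behind Lag3 on the same strand, had 1 count in all libraries together. Of the B cell list, 2 of 5 markers were tested and neither passed: Ighm had a log2 fold change of -1.47 (edgeR adjusted p = 0.322) and Cd79a of 0.12 (edgeR adjusted p = 0.930). The part of T, NK and B cells in the difference of Lag3 was not tested.

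Cd68 (ENSMUSG00000018774.13) encodes a lysosomal glycoprotein best known as a macrophage marker. It was at 6.98, 12.3 and 10.7 CPM in CTRL and at 22.1, 24.98 and 25.1 CPM in RbpjΔEC. The CTRL values spread widely, yet the highest of them lay below the lowest RbpjΔEC value. The means were 9.97 ± 2.71 and 24.0 ± 1.70 CPM (SD, n = 3), with a log2 fold change of 1.27 ± 0.179 (1.06 without CTRL 1).

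Eif4a1 (ENSMUSG00000059796.16), the neighbour of Cd68, encodes the RNA helicase of the translation initiation complex. It is the only one of the 4 upstream genes that was itself called higher. Its level was 125, 172 and 149 CPM in CTRL and 245, 232 and 243 CPM in RbpjΔEC, with no overlap and a log2 fold change of 0.69 ± 0.102. Both genes of this pair were thus higher in RbpjΔEC, Cd68 by the wider margin.

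Macrophage markers did not follow Cd68. Of 17 (Cd68 left out), 9 were tested, none was called higher and 1 was called lower: Mrc1, the mannose receptor, with a log2 fold change of -1.56 (edgeR adjusted p = 0.0261). That call was lost without CTRL 1 (log2 fold change -1.32, edgeR adjusted p = 0.0984), and without CTRL 3, RbpjΔEC 1 or RbpjΔEC 2. The median log2 fold change of the list was -0.97 (-0.17 without CTRL 1). Adgre1, which encodes the macrophage surface protein F4/80, was too low to be tested, at 0.424, 0.0211 and 0.308 CPM in CTRL and 0, 0.215 and 0.0499 CPM in RbpjΔEC. Csf1r, the receptor that macrophages need to survive, was at 3.84, 1.25 and 2.04 CPM in CTRL and 0.669, 0.453 and 1.27 CPM in RbpjΔEC. The part of these cells in the difference of Cd68 was not tested.

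Stpg3 (ENSMUSG00000036770.11) belongs to the sperm-tail PG-rich repeat family. Its level was 1.67, 3.74 and 2.82 CPM in CTRL and 6.18, 8.34 and 8.86 CPM in RbpjΔEC. Again no values overlapped, with means of 2.74 ± 1.04 and 7.79 ± 1.42 CPM (SD, n = 3) and a log2 fold change of 1.50 ± 0.272 (1.24 without CTRL 1).

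Tubb4b (ENSMUSG00000036752.4), its neighbour, encodes a widely expressed beta-tubulin. It was at 118, 138 and 122 CPM in CTRL and at 152, 143 and 137 CPM in RbpjΔEC, with a log2 fold change of 0.19 ± 0.0775. RbpjΔEC 3 fell just below CTRL 2, so that the groups overlapped.

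The list of sperm and motile cilium genes (Stpg3 left out) had 4 of 12 members tested and none called. Prm1, Prm2 and Tnp1, which pack sperm DNA, were at 0 in all libraries. The summed level did not overlap, at 2.20 to 3.06 CPM in CTRL and 3.41 to 3.77 CPM in RbpjΔEC. Foxj1, the master regulator of motile cilia, was at 0.449, 0.465 and 0.355 CPM in CTRL and at 1.36, 0.596 and 1.25 CPM in RbpjΔEC (log2 fold change 1.33, edgeR adjusted p = 0.138). Foxj1 in turn starts 953 bases behind Rnf157, which is 15.8 times stronger on the same strand. Stpg4, of the same family as Stpg3, was at 0.175, 0.380 and 0.142 CPM in CTRL and 0.446, 0.644 and 0.599 CPM in RbpjΔEC, also without overlap (log2 fold change 1.25, edgeR adjusted p = 0.249). Of the other tested members, Stpg1 of the same family had a log2 fold change of -0.02 and Tekt2, a gene of sperm tails, one of 0.22, both with overlapping groups. The part of these genes in the difference of Stpg3 was not tested.

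Mc1r (ENSMUSG00000074037.3) encodes the melanocortin receptor that sets pigment type in melanocytes. It was near the detection limit, with 6, 7 and 7 counts in CTRL and 32, 28 and 41 in RbpjΔEC. Counting error alone is wide at this depth: the exact Poisson interval (95%) ran from 2.81 to 14.4 for 7 counts, from 18.6 to 40.5 for 28, from 21.9 to 45.2 for 32 and from 29.4 to 55.6 for 41. In CPM the means were 0.154 ± 0.00985 and 0.801 ± 0.193 (SD, n = 3), a log2 fold change of 2.35 ± 0.483.

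Tcf25 (ENSMUSG00000001472.17), its neighbour, encodes a subunit of the ribosome quality control complex. It was at 240, 301 and 259 CPM in CTRL and at 320, 301 and 295 CPM in RbpjΔEC, with overlap and a log2 fold change of 0.19 ± 0.0863. Of 10 melanocyte markers (Mc1r left out), 3 were tested and none passed. Mlana was at 0 in all libraries and Tyr, the enzyme that makes melanin, reached at most 0.0499 CPM. The summed level of 28.6 to 35.0 CPM in CTRL and 31.6 to 62.4 CPM in RbpjΔEC was mostly Kit, a receptor of many cell types (log2 fold change 0.74, edgeR adjusted p = 0.386), with Mitf next. Pmel, which builds the fibrils of pigment granules, was at 0.200, 0.317 and 0.592 CPM in CTRL and 0.691, 0.524 and 0.749 CPM in RbpjΔEC, with overlap (log2 fold change 0.82, edgeR adjusted p = 0.422). The part of these genes in the difference of Mc1r was not tested.

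**Figure D1:**
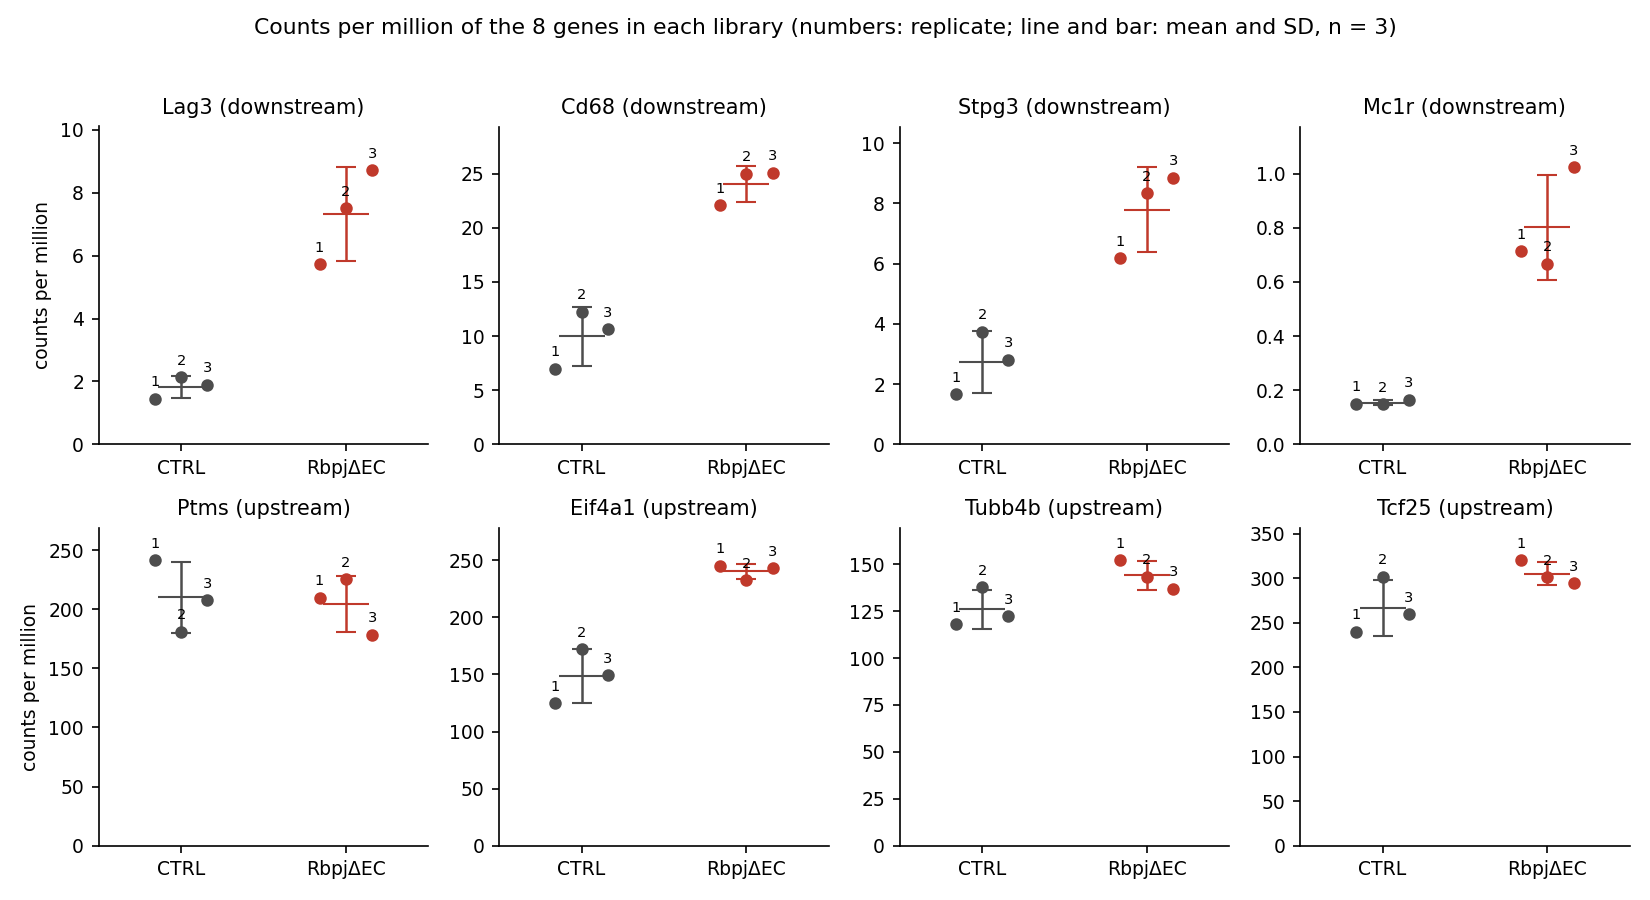
Level of each gene in CPM (vertical axis, from 0) in the 3 CTRL and 3 RbpjΔEC libraries, downstream genes above and their upstream neighbours below; points are libraries numbered by replicate, the line and bar are mean and SD. All 4 downstream genes and Eif4a1 show no overlap between groups, whereas Ptms, Tubb4b and Tcf25 overlap.

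The ratio of both genes of a pair within a library does not depend on how libraries are scaled to each other. With each gene as CPM per kb of exon, Lag3 stood at 0.460%, 0.905% and 0.700% of Ptms in CTRL and at 2.10%, 2.56% and 3.75% in RbpjΔEC. Cd68 was 19.3%, 24.6% and 24.6% of Eif4a1 in CTRL and 31.0%, 37.1% and 35.6% in RbpjΔEC. Cd68 was by far the closest to its neighbour in level.

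Stpg3 was 1.52%, 2.91% and 2.47% of Tubb4b in CTRL and 4.36%, 6.25% and 6.95% in RbpjΔEC. Mc1r was 0.0924%, 0.0727% and 0.0947% of Tcf25 in CTRL and 0.330%, 0.328% and 0.514% in RbpjΔEC. In 4 of 4 pairs the ratio did not overlap between the groups, and nothing is read from this count, since the pairs were chosen on the difference that moves the ratio. Of 502 other pairs with an upstream gene at least 10 times stronger per kb and at most 5 kb away, 22.5% had a ratio higher in all RbpjΔEC libraries, as had 14.3% of 2391 pairs of any ratio at that distance whose upstream gene was above 0 in every library. The fold change of the mean log ratio was 4.10 for Lag3, 1.52 for Cd68, 2.59 for Stpg3 and 4.45 for Mc1r, or 2.04, 0.60, 1.37 and 2.15 on the log2 scale. Without CTRL 1 the log2 values were 1.77, 0.49, 1.10 and 2.20. Of the genes on their own, the log2 fold change without CTRL 1 was 1.85 for Lag3 and 2.33 for Mc1r. It was 0.07 for Ptms, whose sign turned, 0.58 for Eif4a1, 0.14 for Tubb4b and 0.12 for Tcf25.

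**Figure D2:**
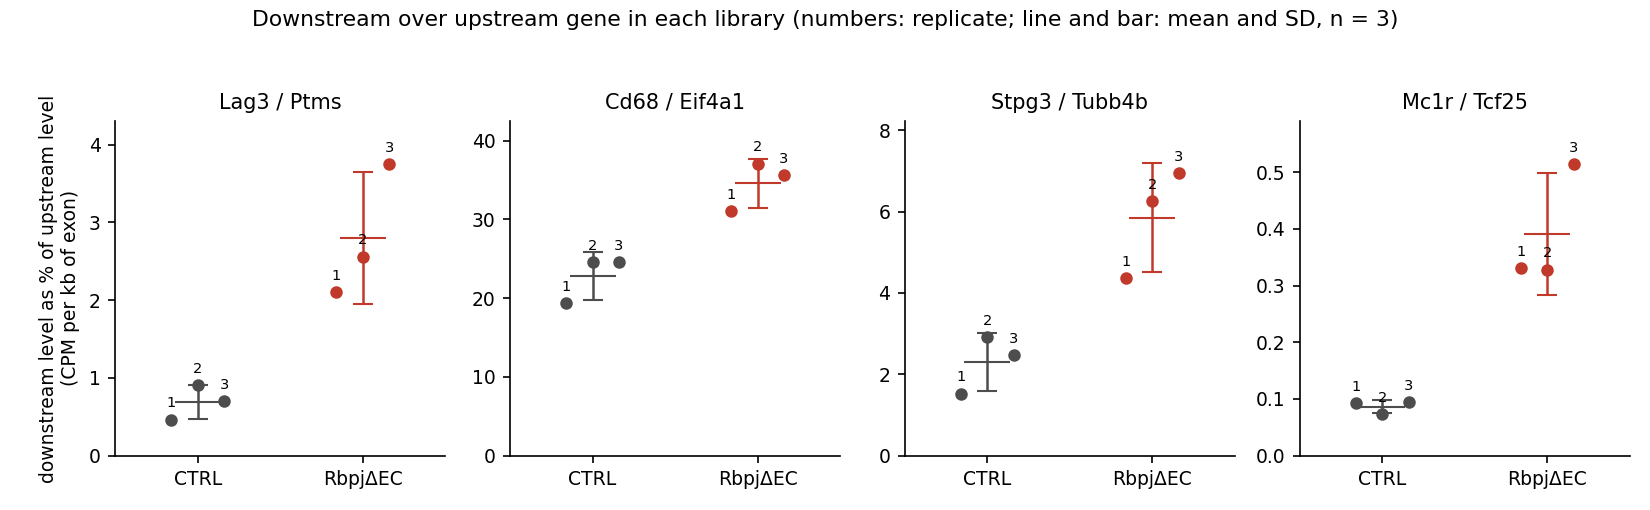
Level of the downstream gene as a percent of its upstream neighbour, both in CPM per kb of exon (vertical axes from 0, a scale of its own per pair), in each library; the line and bar are mean and SD. The pairs were chosen on this difference, and 22.5% of 502 like pairs have all RbpjΔEC values above all CTRL values. The means go from 0.0866% to 0.391% for Mc1r and from 22.8% to 34.6% for Cd68.

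Lag3, Cd68 and Stpg3 ordered the libraries within each group in the same way. Mc1r shared with them only its highest RbpjΔEC library. RbpjΔEC 3 was the highest of its group for all 4 downstream genes, whereas it was the lowest of its group for 3 of the 4 upstream genes. RbpjΔEC 1 was the lowest of its group for 3 downstream genes. In CTRL, CTRL 2 was the highest for 3 downstream and 3 upstream genes, and CTRL 1 the lowest for 6 of all 8. With 1 library left out at a time, the log2 fold changes of the downstream genes lay between 1.06 and 2.47. Their place among the called genes, by which they were chosen, hung on single libraries except for Lag3. Cd68 and Eif4a1 left it without CTRL 3, RbpjΔEC 1 or RbpjΔEC 2, Stpg3 without any of these or CTRL 1, and Mc1r in each of the 6 fits.

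Genes around the pairs were read for differences along the chromosome, while RNA in the gaps was not counted. Within 20 kb of the pairs 28 other genes were listed and 15 tested. Of the tested genes, A230083G16Rik, Tnfsf13, Mpdu1, Fam166a and Sox15 were higher in all RbpjΔEC libraries, as were 11.4% of all tested genes. By edgeR and by DESeq2 none was called. An unadjusted edgeR p under 0.05 was found for 2, both higher, beside 8.88% of all tested genes on the higher side. Of these, A230083G16Rik, antisense to Ptms, stood at 0.948, 0.676 and 0.639 CPM in CTRL and at 1.43, 1.53 and 1.597 CPM in RbpjΔEC (log2 fold change 1.01, edgeR adjusted p = 0.136). Tnfsf13, a B cell survival cytokine upstream of Eif4a1, had a log2 fold change of 0.56 (edgeR adjusted p = 0.193). The kit keeps strand, but whether the counting used it is not given in the sources used here. If it did not, reads of Ptms and A230083G16Rik cannot be told apart.

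The next genes in the same direction stayed closer to 0. Mpdu1, needed for protein glycosylation, began 1.57 kb behind Cd68 and had a log2 fold change of 0.28 without overlap (10.7 to 12.1 CPM in CTRL, 12.3 to 17.0 CPM in RbpjΔEC, edgeR adjusted p = 0.315). Nelfb, a subunit of the factor that pauses RNA polymerase II, began 0.717 kb behind Stpg3 and had a log2 fold change of 0.06 (edgeR adjusted p = 0.719). Tubb3, 0.679 kb behind Mc1r, was too low to be tested, at 0.0237 to 0.324 CPM in CTRL and 0.0499 to 0.167 CPM in RbpjΔEC. Def8, farther on, had a log2 fold change of 0.21 (edgeR adjusted p = 0.328).

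Before the upstream genes, Senp3 ends 0.691 kb ahead of Eif4a1 and had a log2 fold change of 0.10 (edgeR adjusted p = 0.489). Gm25835, a small RNA gene inside Eif4a1, had one of 0.17 with overlapping groups. Fam166a, opposite the gap between Tubb4b and Stpg3, was at 0.249, 0.380 and 0.189 CPM in CTRL and 0.602, 0.381 and 0.499 CPM in RbpjΔEC (log2 fold change 0.84, edgeR adjusted p = 0.416). Sox15, on the other strand beyond Cd68, was at 0.175, 0.359 and 0.118 CPM in CTRL and 0.446, 0.405 and 0.499 CPM in RbpjΔEC, without overlap (log2 fold change 1.02, edgeR adjusted p = 0.368). It starts 2016 bases behind Fxr2, which is 49.5 times stronger per kb on the same strand. The remaining tested neighbours lay between -0.25 (Tnfsf12) and 0.00 (Fxr2).

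**Figure D3:**
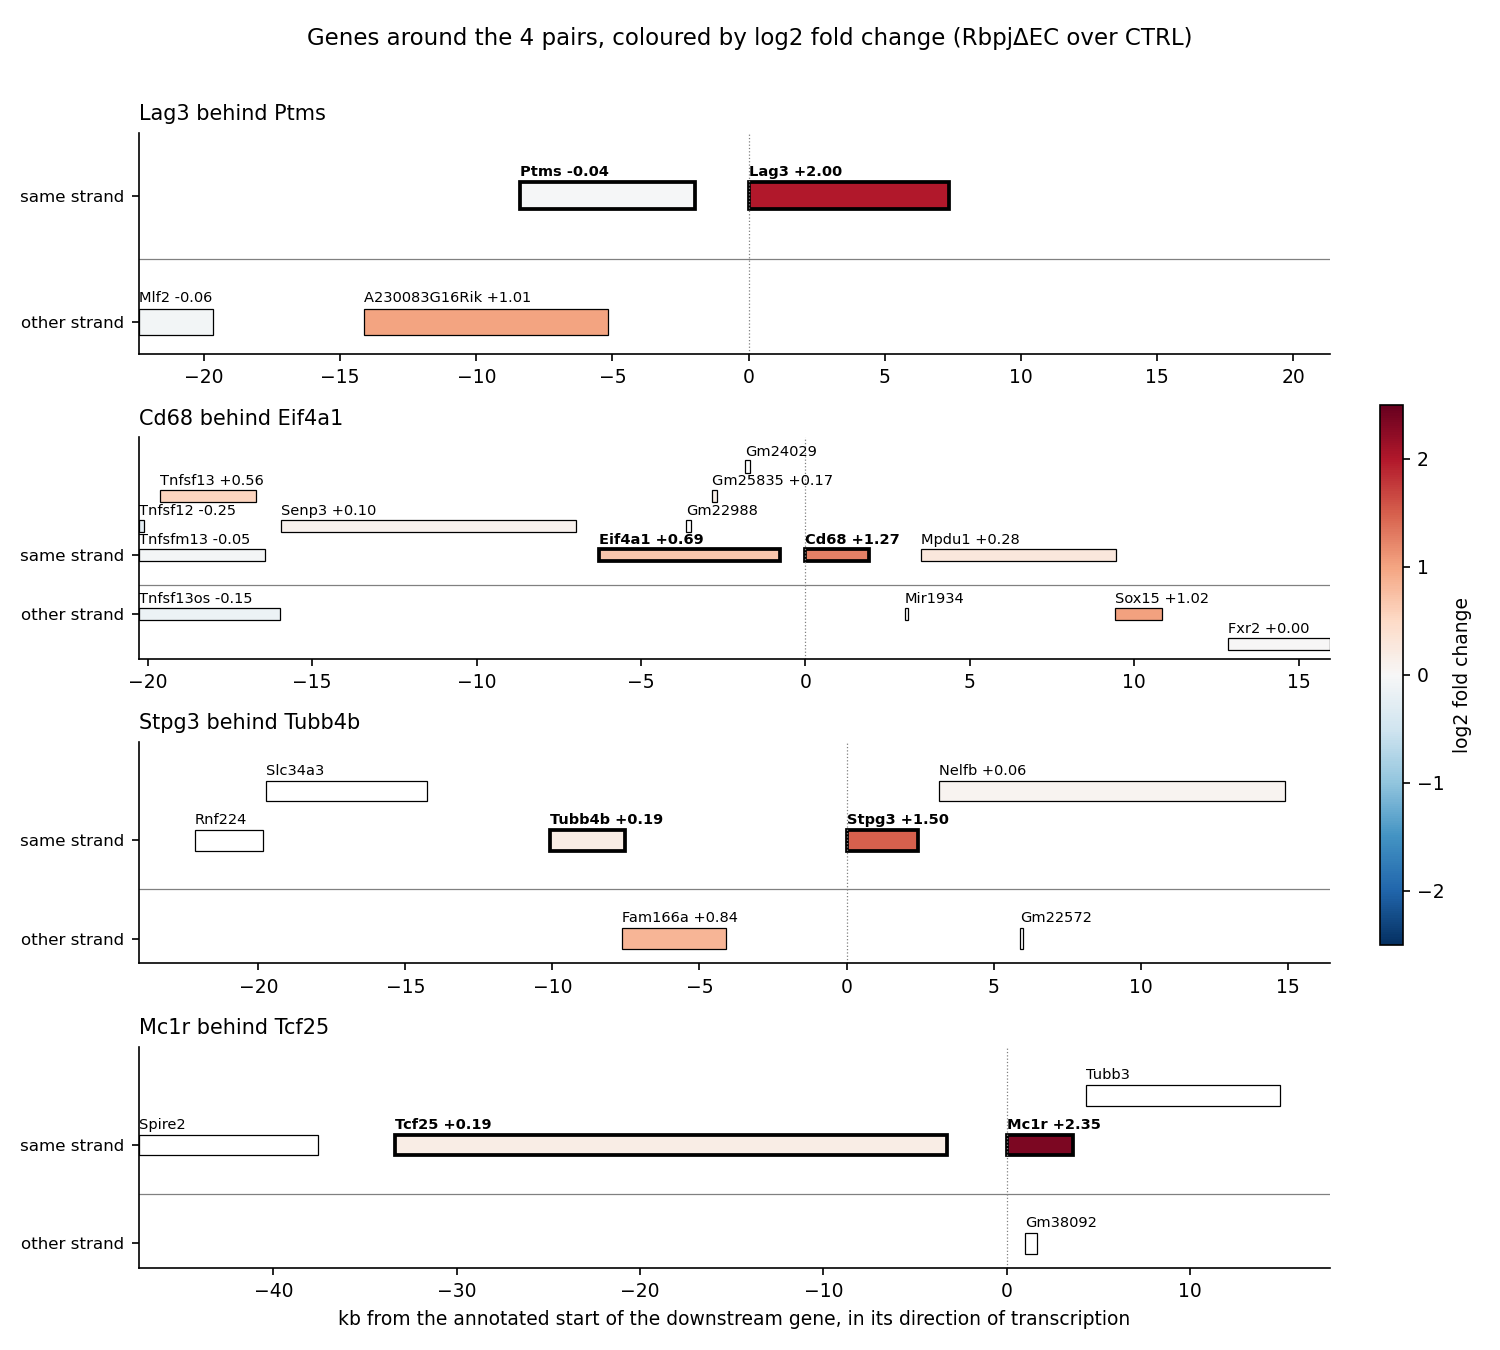
Genes around each pair by distance in kb from the annotated start of the downstream gene (horizontal axis), transcribed left to right, with genes on the other strand below the line. Colour and number are the log2 fold change, white without a number is not tested, and thick outlines mark the pair. Colour is deepest in the downstream genes (1.27 to 2.35), while the next tested genes behind them reach at most 0.28.

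Factors that cut and end transcripts were listed as 39 genes. All were tested and none was called by edgeR, while before adjustment 6 were higher and 1 lower at p under 0.05, a threshold that 8.88% of all tested genes passed as higher and 8.62% as lower. They had a median log2 fold change of -0.01, against 0.01 over all tested genes. The smallest p values belonged to Ppp1r10, the subunit that holds the PP1 phosphatase in the complex slowing RNA polymerase II at gene ends, and to Pcf11, which links cleavage to release of the polymerase. Ppp1r10 had a log2 fold change of 0.67 (edgeR adjusted p = 0.0922) and Pcf11 of 0.29 (edgeR adjusted p = 0.0992), both without overlap. DESeq2 called 2 of the 39 higher and none lower, beside 2.35% and 2.77% of all genes. No factor was called lower by either tool. The summed level of the list did not overlap, at 3566 to 3748 CPM in CTRL and 3788 to 3852 CPM in RbpjΔEC. Without Ppp1r10, left out after its values were seen, it did overlap, at 3359 to 3482 and 3464 to 3503 CPM.

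The same arrangement occurs elsewhere in the genome, and these other genes were not used to choose the pairs. Outside the pairs, 502 tested genes had a same-strand gene ending at most 5 kb before their start with a level per kb of exon at least 10 times theirs. Of these, 4 were called higher (0.797%) and none lower, beside 0.575% higher over all tested genes. Their median log2 fold change was 0.36, with 78.7% above 0 and 22.7% without overlap on the higher side, beside 0.01, 51.1% and 11.4% over all genes. Without CTRL 1 the median was 0.33, and with any 1 library left out it stayed between 0.26 and 0.43. With library sizes alone as scaling it was 0.40, and that over all genes 0.05.

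The median followed the strength of the neighbour. It was -0.01 in 960 genes behind a weaker neighbour, 0.10 in 943 behind one up to 10 times stronger, and 0.46 in 223 behind one at least 30 times stronger. Within 1 kb of a neighbour at least 10 times stronger it was 0.42 (126 genes), and within 20 kb it was 0.26 (1141 genes). Genes with a gene at least 10 times stronger on the opposite strand within 5 kb of their start had a median of 0.20, with 67.9% above 0 (1338 genes). In 638 genes that start inside a same-strand gene at least 10 times stronger it was 0.24, with 76.3% above 0. With no same-strand gene over the start or within 50 kb upstream it was -0.03 (8461 genes), and -0.05 in the 3269 of these with a mean under 5 CPM. These sets differ in level and gene type, and the differences between their medians were not tested.

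By library, the median log2 CPM of the 502 genes against the CTRL mean was -0.03, 0.13 and -0.08 in CTRL 1, 2 and 3, and 0.34, 0.28 and 0.52 in RbpjΔEC 1, 2 and 3. Over all tested genes it was 0.02 or less in every library. For the 4 downstream members the same value was -0.39, 0.29 and 0.10 in CTRL and 1.44, 1.75 and 2.00 in RbpjΔEC. RbpjΔEC 3 led its group and CTRL 2 its own in both sets.

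By this definition Lag3 and Mc1r would have counted, with neighbours 59.1 and 404 times stronger. Stpg3, with a ratio of 23.9, lies beyond the gap limit, and Cd68, with 3.32, below the ratio. The 4 called genes were Gm45053 behind Tgoln1, Tssc4 behind Cd81, Icam4 behind Icam1 and Gm21988 behind Alox12. Icam4, a small adhesion molecule gene 555 bases behind Icam1, was at 1.42, 2.28 and 1.37 CPM in CTRL and 4.04, 3.58 and 5.12 CPM in RbpjΔEC (log2 fold change 1.32, edgeR adjusted p = 0.0423). Icam1, the endothelial receptor for leukocyte integrins, had overlapping groups and a log2 fold change of 0.05. This resembles the Lag3 and Ptms pair, a separated downstream gene behind an overlapping upstream gene.

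Gm45053, a gene model awaiting experimental proof, had a log2 fold change of 0.93 (edgeR adjusted p = 0.0215) while Tgoln1, a trans-Golgi protein gene, had one of -0.18. Tssc4, a splicing factor gene, had one of 0.55 (edgeR adjusted p = 0.0347) while Cd81, which encodes a tetraspanin, had one of -0.15. Gm21988 had one of 2.03 (edgeR adjusted p = 0.0468) behind the lipoxygenase gene Alox12 at -0.26. In all 4 the downstream gene was higher while the upstream gene lay between -0.26 and 0.05. None of the 4 passed without CTRL 1, CTRL 3, RbpjΔEC 1 or RbpjΔEC 2. Icam4 and Gm21988 were also lost without RbpjΔEC 3 (edgeR adjusted p = 0.0563 and 0.0538). Without CTRL 2, 21 of the 502 were called higher, beside 2.09% of all tested genes in that fit.

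**Figure D4:**
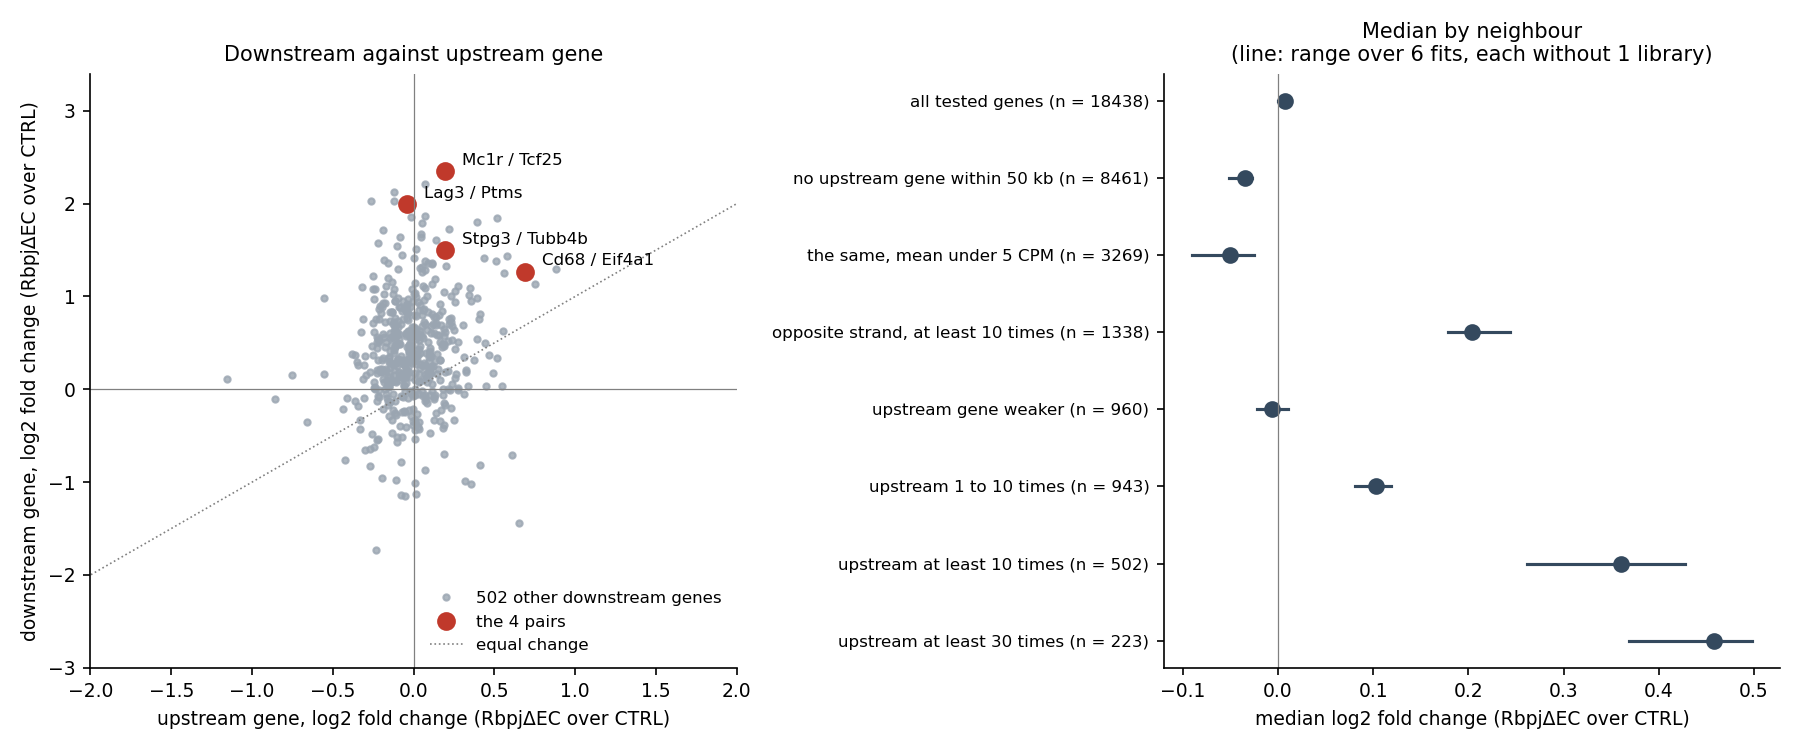
Left, log2 fold change of the downstream gene (vertical) against that of its upstream neighbour (horizontal) for 502 other genes behind a neighbour at least 10 times stronger (grey) and for the 4 pairs (red); the dotted line marks equal change. Right, median log2 fold change of genes by their neighbour, with lines for the range over 6 fits that each leave out 1 library; it moves from -0.01 behind a weaker neighbour to 0.46 behind one at least 30 times stronger.

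The genes most like each downstream gene over the 6 libraries were found by the root mean square difference of log2 CPM centred on each gene's mean, among 14134 genes with a mean of at least 1 CPM. Mc1r, with a mean under 1 CPM, was not among them, though it lay 0.22 from Lag3. Of the candidates, Lag3 was nearest to Stpg3 (0.28), Gm8696 (0.32) and Icam5 (0.34), and Mc1r to Lag3 (0.22), Tbx10 (0.40) and Gm48565 (0.43). Cd68 was nearest to 9330104G04Rik (0.07), Gm8696 (0.11) and Gm34455 (0.15), and Stpg3 to Gm8696 (0.09), Cd68 (0.19) and Gm28730 (0.20). The members were chosen for the same difference between these libraries, so nothing is read from their nearness to each other.

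By the same measure Ptms ranked 9506 for Lag3, Tubb4b 2416 for Stpg3 and Tcf25 2739 for Mc1r. Eif4a1 was closer, ranking 119 for Cd68, ahead of Lag3 (207) and Mc1r (701). Of the 7 like genes that are not members, 5 start within 5 kb behind a same-strand gene, as do 13.1% of all tested genes with a model. In 3 of the 5 (Gm8696, Icam5 and Gm28730) the neighbour is less than 10 times stronger, at ratios of 6.35, 2.35 and 1.49. Gm8696 lies 1723 bases behind Hspa1b, a heat shock protein gene, Gm34455 2389 bases behind Dusp1, Tbx10 2744 bases behind Acy3 and Icam5 1477 bases behind Icam4. These values describe 6 libraries in 2 groups, so any gene with a similar fold change comes out as like.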

How the data were processed

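Endothelial RNA from 3 CTRL and 3 RbpjΔEC mice was made into libraries with the SMARTer Stranded Total RNA-Seq Pico v2 kit. The deposited table holds raw read counts per gene, which the authors made with featureCounts (Subread 1.6.4) after trimming with Trim Galore 0.6.4 and alignment with STAR 2.6.1d, run through nf-core/rnaseq 1.4.2, on GRCm38.p6 with GENCODE M25 gene models. The strand setting of the counting is not given in the sources used here. A total-RNA library holds unspliced and uncut RNA, and reads are credited to whichever exon they cover.

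Counts of all genes passing filterByExpr were fitted with edgeR 4.0.16 (TMM factors, quasi-likelihood test, robust) in R 4.3.3, and p-values were adjusted by the Benjamini-Hochberg method over all tested genes with a threshold of 0.05. DESeq2 1.42.0 served as an alternative. Both were tested on simulated data. CPM are per TMM-scaled library, and CPM per kb uses exon lengths of GENCODE M21, another release than that of the counts, which held 55141 of the 55401 listed genes, so that lengths and gaps can differ slightly from the counted models. Depth sets the precision: 3 counts, the limit a count of 0 allows, corresponded to 0.0633 to 0.0748 CPM, and intervals cover counting error only. With 1 library per mouse, p-values reflect the spread between 3 mice.

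The members and gene lists were chosen with earlier results of these data known. Genes named besides the members were all tested genes within 20 kb of a pair, up to 5 called genes of a list or the 2 of smallest p, the 3 genes most like each downstream gene, and the called genes behind a stronger neighbour. Further genes of a marker list (Csf1r, Adgre1, Tyr, Mitf, Slc34a1, Lrp2, Cubn, Cd4, Stpg1, Tekt2 and those at 0) and untested neighbours were named after their values were seen. The sets of low-level genes without an upstream neighbour and of genes starting inside another were added after seeing the data. One result is not reported here. Alternatives changed the scaling, the filter, the test, the block and the libraries used.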

Additional observations from a re-analysis of the deposited data

How the results depend on the processing

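Log2 fold changes of the 8 genes and ratios of the 4 pairs stayed within 1 SD of the replicates under every alternative run, and all but Ptms (-0.14 to 0.07, near 0 throughout) kept their direction. The number of genes called over all tested genes was 209. It was 1436 with no low-count filter, 944 with DESeq2, 344 with the replicate number as a block, and 21 to 700 with 1 library left out, lowest without RbpjΔEC 1 and highest without CTRL 2. Of the termination factors, 0 were called, against 4 with no filter, 2 with DESeq2, 1 with the block and 0 to 3 with 1 library left out (3 without CTRL 2). Of the genes behind a stronger neighbour 4 were called, against 1 with a gap of up to 1 kb, 9 with a ratio of at least 3, 0 with a ratio of at least 30, 25 with DESeq2, and 0 to 21 with 1 library left out. It was 0 without CTRL 1, CTRL 3, RbpjΔEC 1 or RbpjΔEC 2. Genes that start inside a stronger same-strand gene, a set chosen after seeing the data, gave 6 of 638. No flanking gene was called under any alternative. The cause of these differences was not tested.

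Replicate numbers did not pair the samples: deviations of same-numbered libraries correlated at 0.023, 0.0092 and 0.0054; under the block Mc1r was not among the called genes. The Mc1r values rest on 6 to 41 counts per library, and with at least 1 CPM in 3 libraries as filter the gene was not tested.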

Other observations

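Of 8 markers of mural cells, which wrap small vessels, 7 were tested and 3 were called lower in RbpjΔEC, beside 0.559% of all tested genes: Acta2, smooth muscle actin, with a log2 fold change of -1.30 (edgeR adjusted p = 0.0369), Myh11, smooth muscle myosin, with -1.08 (edgeR adjusted p = 0.0468), and Rgs5, a pericyte gene, with -0.88 (edgeR adjusted p = 0.0468). Without CTRL 1 none of the 3 passed (edgeR adjusted p = 0.0956, 0.127 and 0.120, with log2 fold changes of -1.36, -0.97 and -0.69), nor without RbpjΔEC 1. Acta2 and Myh11 were also lost without CTRL 3, and Rgs5 without CTRL 2 or RbpjΔEC 2. With at least 1 CPM in 3 libraries as filter, Myh11 and Rgs5 did not pass (edgeR adjusted p = 0.0506 and 0.0523). Rgs5 was also lost with library sizes alone as scaling (edgeR adjusted p = 0.0553). The summed level of the list was 80.8 to 106 CPM in CTRL and 34.0 to 53.2 CPM in RbpjΔEC. Of 9 nephron markers all were tested and none passed, with 3 above and 6 below 0 and a summed level of 281 to 419 CPM in CTRL and 104 to 388 CPM in RbpjΔEC. Aqp2, the water channel of the collecting duct, had a log2 fold change of -2.77 (edgeR adjusted p = 0.159, and -1.80 without CTRL 1) and Umod, of the thick ascending limb, one of -1.19 (edgeR adjusted p = 0.279). The proximal tubule genes Slc34a1, Lrp2 and Cubn had 1.28, 1.27 and 0.98, with overlapping groups and RbpjΔEC 3 highest in each. The share of mitochondrial counts was 6.48% to 7.17% in CTRL and 5.40% to 6.64% in RbpjΔEC. The part of these values in the levels of the 4 pairs was not tested.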
